A study of Mus musculus with 30 samples.

Results

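The genes described here were 8 mouse long non-coding RNA (lncRNA) genes, 3 of them known as nuclear lncRNAs (Malat1, Neat1 and Kcnq1ot1) and 5 known as host genes of small nucleolar RNAs, or snoRNAs (Gas5, Snhg1, Snhg5, Snhg8 and Snhg12). They were chosen by name and not by their values, though with earlier results of these data known, from the 54532 genes of the platelet and PBMC (peripheral blood mononuclear cell) count tables. All 8 were found in both tables. The question was how much of each RNA the platelet libraries held relative to PBMCs, because platelets have no nucleus and a nuclear RNA in a platelet library can stand for RNA of nucleated cells.

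Blood platelets are shed from megakaryocytes, and they carry cytoplasmic RNA from that parent cell. Malat1 RNA stays in nuclear speckles, Neat1 RNA builds the nuclear bodies called paraspeckles, and Kcnq1ot1 RNA stays at the chromosome from which it is read and silences neighbouring imprinted genes. A snoRNA host gene is read into a precursor whose introns release snoRNAs, the guides of ribosomal RNA modification, while its spliced exons are exported, bound by ribosomes and often removed by nonsense-mediated decay. These locations are background, and the count tables held whole-cell RNA with no separation of nucleus and cytoplasm.

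RNA was sequenced from platelets and PBMCs of female C57BL/6 mice, 6 to 8 weeks old at the start. Mice of C group received 100 µl of HBSS (a salt solution) under the skin of the right flank, mice of S group received 2000 cells of B16F10, a mouse melanoma line, and mice of O group received 100000 B16F10 cells. Blood was taken on day 14, when O group had palpable tumors and S group, labelled early tumor, had no visible tumor. Each tissue had 5 libraries per group (30 in all), each a pool of 3 to 10 mice by the labels, so P values measured the spread between pools, and not every mouse of S group need have gone on to form a tumor. Platelets were spun out of platelet-rich plasma with no stated step to remove leukocytes, PBMCs came from the same tubes by density, and libraries are named below by group and replicate (S5 is replicate 5 of S group).

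Gene totals ran from 12259036 to 25360080 reads in platelets and from 13390983 to 15973449 in PBMCs. All 14 tested genes of a platelet marker list were higher in platelets, with a median log2 fold change of 4.25, but 15 of 15 platelet libraries also held leukocyte markers, and Ptprc (CD45, on all leukocytes) stood at 5.75% to 60.0% of its PBMC level (median 15.4%). Ptprc is 1 of 7 pan-leukocyte markers, of which 3 were lower and 3 higher in platelets. Their median was 110.9% of the PBMC level, so Ptprc alone does not give the leukocyte content. Erythroid markers took 4.2% to 41.7% of the counts in platelets and 3.36% to 27.7% in PBMCs. Levels below are in CPM, read counts per library size after TMM (trimmed mean of M values) normalization, and because the TMM factors ran from 0.381 to 1.01 in platelets and from 0.930 to 1.78 in PBMCs, the result with total counts alone is given where it turned a called difference between the tissues.

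Malat1 (ENSMUSG00000092341, chr19:5795690-5802672, minus strand, GRCm38) and Neat1 (ENSMUSG00000092274, chr19:5824708-5845478, minus strand) are neighbours, each a single exon block of 6983 and 20771 bases. Kcnq1ot1 (ENSMUSG00000101609, chr7:143203458-143296549, minus strand, 93092 bases) is annotated as antisense to Kcnq1. The hosts were Gas5 (ENSMUSG00000053332, chr1:161034422-161038539, plus strand), Snhg1 (ENSMUSG00000108414, chr19:8723475-8726443, plus strand), Snhg5 (ENSMUSG00000097195, chr9:88521050-88522929, minus strand), Snhg8 (ENSMUSG00000104960, chr3:123507552-123508404, minus strand) and Snhg12 (ENSMUSG00000086290, chr4:132308623-132311024, plus strand). These hosts enclose 10, 8, 2, 1 and 5 annotated snoRNA genes in that order. All 26 snoRNA genes lie within annotated host exons and had 0 counts in every library. Reads that overlap more than 1 gene may have been left unassigned in the counting, so the tables do not show whether host values include snoRNA reads, and they say nothing of the mature snoRNAs. The library kit did not mark strand, so reads of Malat1 and Kcnq1ot1 could not be told apart from their opposite-strand neighbours where exons overlap, over 453 and 1119 bases.

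The starts of the snoRNA hosts are shown because 5′ terminal oligopyrimidine (TOP) RNAs, to which snoRNA host transcripts are known to belong, begin with a C followed by a run of C or T. Each line holds 50 bases of the gene's strand from RefSeq (GRCm38.p6), 20 before and 30 from the annotated start. Capitals mark a C followed only by C or T, at least 5 bases long and beginning within 2 bases of the start, and the rule was set after the windows were seen.

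Gas5 (chr1:161035146-161035195, plus strand): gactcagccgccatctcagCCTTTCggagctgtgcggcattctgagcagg

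Snhg8 (chr3:123508307-123508356, minus strand): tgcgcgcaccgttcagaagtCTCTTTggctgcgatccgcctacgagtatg

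Snhg12 (chr4:132308658-132308707, plus strand): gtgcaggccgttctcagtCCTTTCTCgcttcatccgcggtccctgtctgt

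Snhg1 (chr19:8723467-8723516, plus strand): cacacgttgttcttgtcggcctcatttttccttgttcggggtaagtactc

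Snhg5 (chr9:88522868-88522917, minus strand): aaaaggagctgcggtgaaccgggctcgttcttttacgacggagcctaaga

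Malat1 (chr19:5802643-5802692, minus strand): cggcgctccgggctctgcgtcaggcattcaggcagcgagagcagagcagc

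Such a run of 6 bases was found at a Gas5 start and at Snhg8, and one of 8 bases at Snhg12. It was 4 bases at Snhg1, 2 at Snhg5 and 1 at Malat1, under the minimum, and the other Gas5 start and Kcnq1ot1 had no run of 5. Of 32851 start windows in RefSeq, 8.956% held a run of at least 5 bases on the gene's strand and 10.389% on the opposite strand. No window was at hand for Neat1, and a match describes the letters only.

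Per kilobase of exon, Gas5 had the highest mean level of the 8 genes in platelets, at 30.1 CPM per kb, followed by Malat1 at 22.4, Snhg8 at 17.2, Neat1 at 5.82, Snhg1 at 4.67, Snhg5 at 3.13, Snhg12 at 2.87 and Kcnq1ot1 at 0.0107. The gap to the next gene exceeded the larger standard deviation over the 15 libraries only between Snhg8 and Neat1 and between Snhg12 and Kcnq1ot1. In PBMCs the mean level per kilobase was 203 CPM per kb for Malat1, then 18.4 for Gas5, 16.3 for Neat1, 14.4 for Snhg8, 8.54 for Snhg1, 7.59 for Snhg5, 6.16 for Snhg12 and 0.0635 for Kcnq1ot1. There Malat1 exceeded Gas5 in 15 of 15 libraries, by more than the larger standard deviation, while the gaps from Gas5 to Neat1, from Neat1 to Snhg8 and from Snhg1 to Snhg5 did not exceed it. In platelets Gas5 exceeded Malat1 per kilobase in 13 of 15 libraries. Lengths were those of all annotated exons merged, which cover the whole gene for Snhg1, Snhg8 and Snhg12 and 3760 of 4118 bases for Gas5. Spliced host RNA can be shorter, so the order of the genes per kilobase depends on this length. The reads were selected on poly(A) tails, which the mature Malat1 RNA and the long Neat1 RNA are known to lack, so their counts need not follow their amount.

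Malat1, the speckle RNA, was the member with the largest difference between platelets and PBMCs. Its level in platelets was 218, 54.1, 60.7, 158 and 138 CPM in replicates 1 to 5 of C, 123, 97.3, 137, 155 and 466 CPM in those of S and 384, 61.8, 157, 19.1 and 120 CPM in those of O group. In PBMCs it was 999, 1602, 1902, 1136 and 1596 CPM in C, 779, 1670, 1652, 1375 and 1432 CPM in S and 810, 1578, 1786, 1359 and 1551 CPM in O group. The highest platelet library, S5, stayed below the lowest PBMC library, and this held with total counts too. The log2 fold change was -3.20 (SE 0.313), so the platelet level was 10.9% of the PBMC level (95% interval 6.99% to 16.9%, edgeR, adjusted P = 1.03e-10), and 1.80% of the 14342 tested genes had a lower fold change. Leaving out S5 and O1 together, which were chosen after their values were seen, gave -3.50, and with total counts the value was -4.49.

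Neat1, the paraspeckle RNA, was lower in platelets by less. Its platelet level was 182, 62.8, 70.4, 105 and 73.2 CPM in C, 92.7, 80.7, 139, 82.2 and 279 CPM in S and 399, 49.4, 101, 44.0 and 53.3 CPM in O group. In PBMCs it was 476, 288, 284, 328 and 348 CPM in C, 539, 261, 258, 253 and 338 CPM in S and 599, 210, 275, 311 and 305 CPM in O group. Platelet libraries S5 and O1 reached into the PBMC range and the other 13 stayed below it, while with total counts the ranges did not overlap. The log2 fold change was -1.50 (SE 0.274), a platelet level of 35.4% of PBMCs (24% to 52.1%, edgeR, adjusted P = 1.11e-05), and was -1.86 without S5 and O1 and -2.82 with total counts.

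Kcnq1ot1, the imprinting RNA, rested on few platelet reads. Its platelet counts were 15, 0, 8, 17 and 13 in C, 6, 2, 3, 10 and 81 in S and 1, 0, 6, 3 and 24 in O group, against 65 to 193 in the PBMC libraries. A count of 0 allowed up to 3.55% (C2) and 5.00% (O2) of the PBMC mean, taking 3 counts as the limit and counting error only. S5 alone held 81 reads and was the only platelet library inside the PBMC range of 3.57 to 7.61 CPM, at 5.93 CPM. The log2 fold change was -2.59 (SE 0.39), which is 16.6% of the PBMC level (9.57% to 28.8%, edgeR, adjusted P = 4.89e-07), and without S5 it was -3.19.

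**Figure D1:**
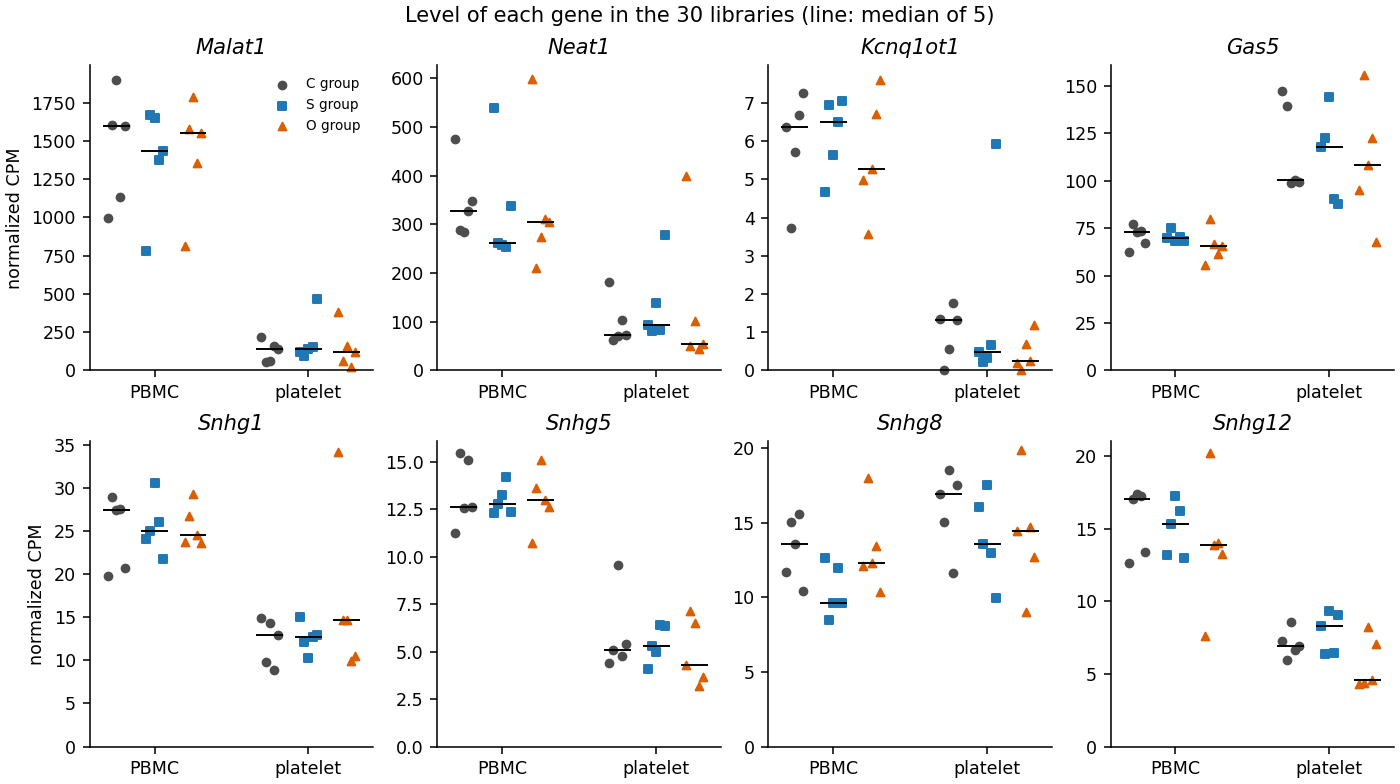
Level of each of the 8 genes, in TMM-normalized CPM (linear axes from 0), in the 15 PBMC and 15 platelet libraries. Points are libraries, and lines mark the median of 5 libraries of a group. Malat1 lay between 779 and 1902 CPM in PBMCs and between 19.1 and 466 CPM in platelets. Gas5 lay higher in platelets in this TMM scaling and lower with total counts.

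Gas5, a host of box C/D snoRNAs whose spliced RNA is known to build up when growth stops, was the host with the highest platelet level relative to PBMCs. Its platelet level was 147, 140, 98.8, 101 and 99.4 CPM in C, 118, 123, 144, 90.3 and 87.9 CPM in S and 94.9, 156, 108, 123 and 67.8 CPM in O group. In PBMCs it was 62.6, 77.3, 73.0, 73.6 and 67.0 CPM in C, 69.9, 75.0, 68.5, 70.6 and 68.1 CPM in S and 55.8, 79.8, 66.9, 61.4 and 65.4 CPM in O group. Only O5 fell inside the PBMC range. The log2 fold change was 0.71 (SE 0.0949), or 164% of the PBMC level (143% to 188%, edgeR, adjusted P = 5.26e-08), but with total counts it turned to -0.56 and passed in that direction.

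Snhg8, host of Snora24, stood at 8.51 to 18.0 CPM in PBMCs and 9.05 to 19.9 CPM in platelets, ranges that overlapped almost wholly. Its log2 fold change was 0.26 (SE 0.108, 120% of the PBMC level, 103% to 140%, edgeR, adjusted P = 0.0266), and with total counts it was -0.98 and passed in that direction. The other hosts were lower in platelets under both scalings. Snhg1, host of 8 snoRNA genes, had -0.89 (SE 0.13, 53.8%, 44.8% to 64.7%, edgeR, adjusted P = 2.8e-07), with 8.92 to 34.2 CPM in platelets and 19.8 to 30.7 CPM in PBMCs, ranges that did not overlap with total counts. Snhg5, host of Snord50a and Snord50b, had -1.28 (SE 0.116, 41.2%, 35% to 48.5%, edgeR, adjusted P = 1.78e-11), and its platelet range of 3.16 to 9.58 CPM stayed below its PBMC range of 10.7 to 15.5 CPM. Snhg12, host of 5 snoRNA genes, had -1.10 (SE 0.116, 46.5%, 39.5% to 54.9%, edgeR, adjusted P = 5.25e-10), with 4.30 to 9.31 CPM against 7.60 to 20.2 CPM. With total counts these 3 hosts were at -2.16, -2.49 and -2.31, and Kcnq1ot1 was at -3.74.

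All 8 genes passed the threshold of P under 0.05 between the tissues, as did 82.3% of the 14342 genes tested (37.1% higher and 45.2% lower in platelets), and all 8 passed after adjustment (7 without platelet O2 or without PBMC S2, where Snhg8 did not), as did 81.5%, so the calls alone did not set these genes apart. The split of all called genes was 5327 higher and 6481 lower with TMM, and 1860 higher and 11303 lower with total counts. The 3 nuclear lncRNAs had a median log2 fold change of -2.59 and the 5 hosts one of -0.89, while the median was -0.12 over all tested genes, -0.08 over 12142 protein-coding genes, -0.40 over 360 lincRNA genes (the annotated class of Malat1, Neat1 and Snhg12), -0.60 over 178 processed transcripts (that of the other 4 hosts) and -1.35 over 372 antisense genes (that of Kcnq1ot1). With total counts the median of all genes moved to -1.34. Relative to the median of all genes, Malat1 stood at -3.08 with TMM and -3.15 with total counts, Neat1 at -1.38 and -1.48, and Gas5 at 0.84 and 0.78. Scaling shifts all genes of a library alike, so these distances could hardly move with it. They were -2.71, -1.03 and 1.19 with no filter and -3.58, -1.87 and 0.31 with DESeq2. In these bulk samples fewer nucleated cells and less RNA per cell cannot be told apart.

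Taken per library, as a percentage of the PBMC mean of the same group, the Malat1 level was 15, 3.74, 4.2, 11 and 9.54% in C, 8.90, 7.04, 9.90, 11.2 and 33.7% in S and 27.1, 4.37, 11.1, 1.35 and 8.48% in O group. Neat1 was at 52.7, 18.2, 20.4, 30.3 and 21.2% in C, 28.1, 24.5, 42.0, 24.9 and 84.6% in S and 118, 14.5, 29.6, 12.9 and 15.7% in O group. In both genes S5 and O1 were the highest and O4 was the lowest library. Gas5 was at 209, 197, 140, 142 and 141% in C, 167, 174, 205, 128 and 125% in S and 144, 237, 164, 186 and 103% in O group. It was thus above 100% in 15 of 15 libraries with TMM and in 0 of 15 with total counts, and S5 and O1 lay within the range of the others. Kcnq1ot1 ran from 0% to 29.6% apart from S5 at 96.2%, and Snhg1 from 35.8% to 60% apart from O1 at 133%. Snhg5 ran from 24.3% to 71.5%, Snhg12 from 31.1% to 62.1%, and Snhg8 from 68.3% to 167%, with 11 of 15 libraries above 100% for Snhg8 with TMM and 0 with total counts. The medians over 15 libraries were 9.54% for Malat1, 24.9% for Neat1, 9.54% for Kcnq1ot1, 50.8% for Snhg1, 38.5% for Snhg5 and 44.3% for Snhg12. With total counts they were 3.93%, 12.5%, 4.35%, 23.2%, 15.3% and 17% in the same order. For Gas5 the median was 164% (67.4% with total counts) and for Snhg8 124% (50.7% with total counts).

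**Figure D2:**
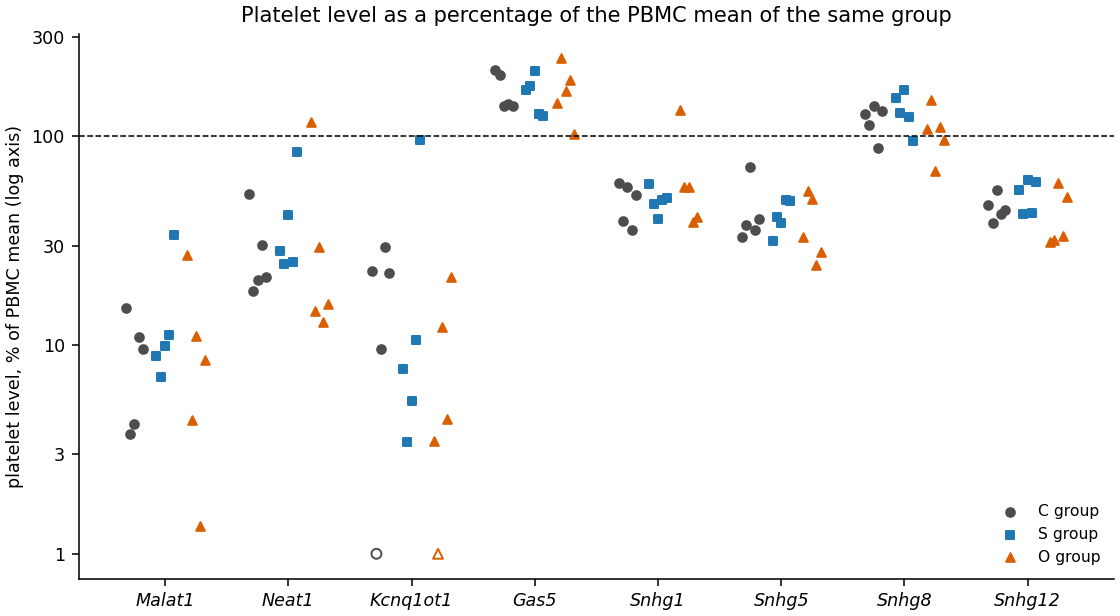
Platelet level of each gene as a percentage of the mean PBMC level of the same group, on a log axis. Points are the 15 platelet libraries, the dashed line marks 100%, and open symbols drawn at 1% are the Kcnq1ot1 libraries with 0 counts. Malat1 ran from 1.35% to 33.7%. Gas5 ran from 103% to 237% in this TMM scaling, and with total counts all 15 of its points would lie below 100%.

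Leukocyte protein-coding markers were read as another gauge of nucleated-cell RNA, although a marker higher in platelets than in PBMCs need not stand for leukocytes. Of 54 markers in 6 lists of known cell type markers, 41 were lower in platelets and 6 were higher with TMM, and their median level was 45.8% of PBMCs (5.38% to 427%), with 1 marker below the 10.9% of Malat1. By list the medians were 110.9% for 7 pan-leukocyte markers, 61.9% for B cells, 49.5% for NK cells, 39.1% for neutrophils, 37.5% for T cells and 19.4% for monocytes. Single genes taken per library had medians of 15.4% for Ptprc, 16.4% for Cd3e (T cell receptor complex), 59.6% for Cd79a (B cell receptor complex) and 68.1% for S100a9 (a granulocyte protein). With total counts the median difference of each of the 6 lists was below 0, so these percentages were scaling-dependent in the same way as those of the 8 genes. Among platelet libraries the summed pan-leukocyte list was highest in O4 (7187 CPM) and lowest in O5 (4044 CPM). The summed platelet marker list was highest and lowest in the same libraries (95740 and 18193 CPM). How much of the marker levels was RNA of platelets themselves was not tested.

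The ratio of reads between genes within a library does not depend on the scaling. Malat1 reads per Gas5 read were 1.48, 0.387, 0.615, 1.58 and 1.39 in platelets of C, 1.04, 0.793, 0.949, 1.71 and 5.30 in those of S and 4.05, 0.397, 1.46, 0.156 and 1.77 in those of O group. In PBMCs they were 16, 20.7, 26, 15.4 and 23.8 in C, 11.1, 22.3, 24.1, 19.5 and 21 in S and 14.5, 19.8, 26.7, 22.1 and 23.7 in O group. The ranges did not overlap, and the mean log2 ratio was lower in platelets (log2 difference -4.2), a 0.0546-fold ratio (two-sided permutation test, P = 2e-05, the smallest 100000 resamples can give, adjusted P = 0.00014 over 21 tests). Neat1 reads per Gas5 read ran from 0.316 to 4.21 in platelets and from 2.63 to 10.7 in PBMCs, a difference of -2.42 on the log2 scale (same P). Malat1 reads per Neat1 read had medians of 1.25 and 5.08 and a difference of -1.78 (same P), so the nuclear lncRNAs were not lowered in a fixed proportion to each other. Between groups within a tissue no ratio passed the threshold, with exact permutation P from 0.381 to 0.976 before adjustment, where 5 against 5 libraries can reach 0.00794.

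**Figure D3:**
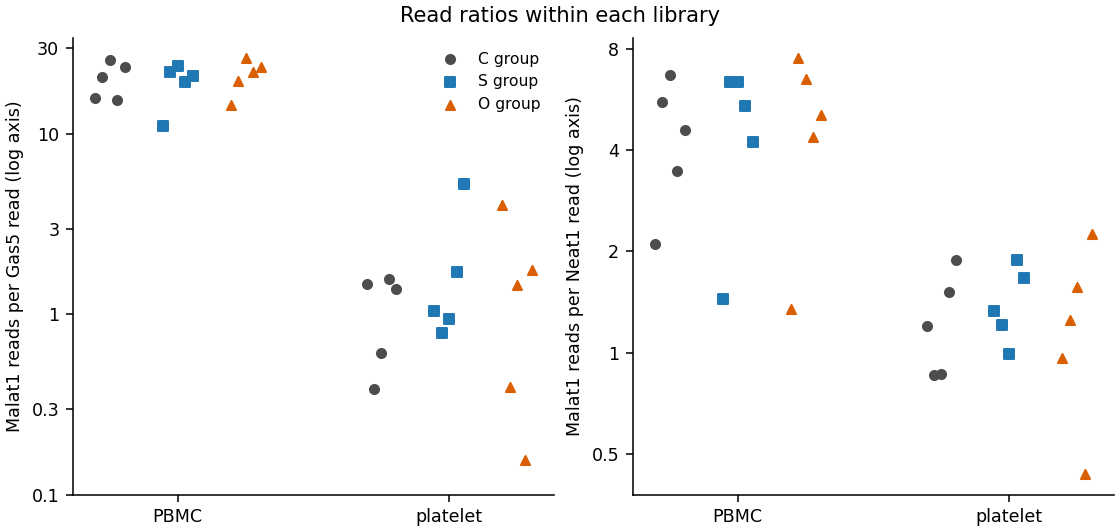
Malat1 reads per Gas5 read (left) and per Neat1 read (right) within each library, on log axes, for 15 PBMC and 15 platelet libraries. Points are libraries, marked by group. The Malat1 to Gas5 ratio was 11.1 to 26.7 in PBMCs and 0.156 to 5.30 in platelets, with S5 and O1 the highest platelet libraries.

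The 15 platelet libraries differed in leukocyte marker content, summarized as the mean log2(CPM + 1) over the 54 markers, and this score ran from 4.99 to 5.99 in platelets (median 5.57) and from 6.44 to 6.87 in PBMCs. The score includes the 6 markers that were higher in platelets than in PBMCs. Neat1 rose with the score, with Pearson r = 0.826 (permutation P = 5e-05, adjusted P = 0.0004 over 8 genes) and Spearman rho = 0.743 (adjusted P = 0.0158, lost without C1 or O4, at up to 0.0694), and r was 0.745 (permutation P = 0.00093) without O4 and S5, the libraries farthest from the median score. Within C, S and O groups r was 0.683, 0.822 and 0.904. Malat1 had r = 0.745 (permutation, adjusted P = 0.00492) and rho = 0.589 (adjusted P = 0.0628), but r fell to 0.499 (permutation P = 0.0819) without O4 and S5 together. Without O4 alone it was 0.635 and did not pass (permutation, adjusted P = 0.0578), and it ran from 0.674 to 0.796 and passed without any other single library. Its r within C, S and O groups was 0.311, 0.599 and 0.966. Snhg1 had r = 0.567 (permutation, adjusted P = 0.0521) and rho = 0.668 (permutation, adjusted P = 0.032), a rank call that was lost without C1, C2, S1, O1, O4 or O5 (adjusted P of 0.0516 to 0.0945). For Gas5 r was -0.006, for Snhg8 -0.108, for Snhg5 0.203, for Kcnq1ot1 0.342 and for Snhg12 0.457, none past the threshold. Without O1 the r of Snhg12 was 0.769 and passed (permutation, adjusted P = 0.00436), and without S5 that of Kcnq1ot1 was -0.023. Members and markers shared the library and its TMM factor, and with total counts the coefficients of 6 genes passed, at 0.591 for Neat1, 0.688 for Malat1, 0.871 for Snhg12, 0.696 for Kcnq1ot1, 0.668 for Snhg5 and 0.615 for Snhg1, while they were 0.299 for Gas5 and 0.345 for Snhg8. By rank Snhg12 alone passed with total counts (rho = 0.929, permutation, adjusted P = 0.00016), and the adjusted P of the other 7 was 0.0657 to 0.499.

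**Figure D4:**
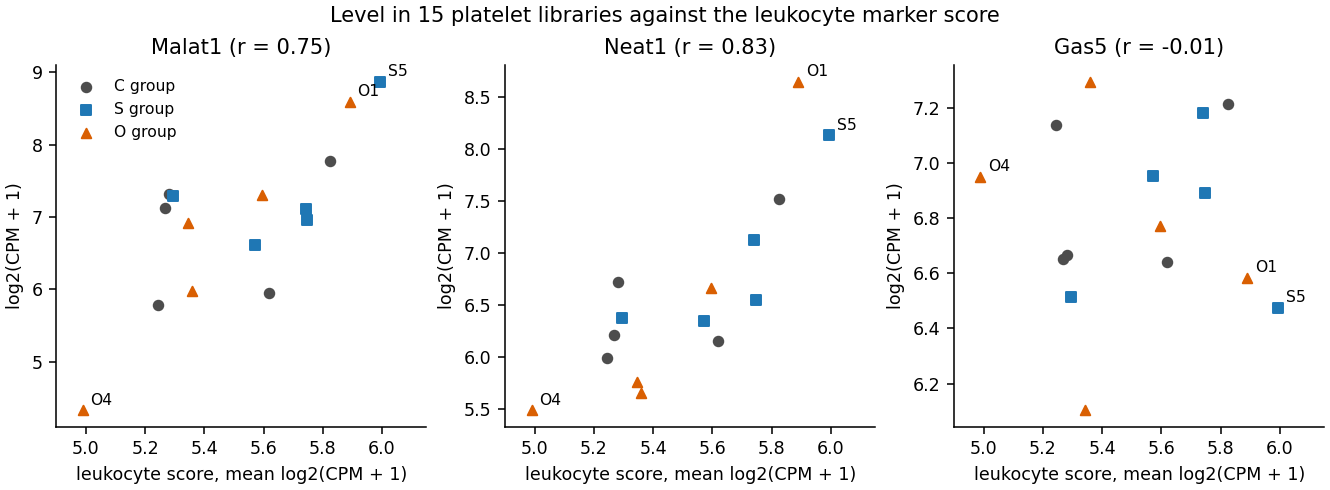
Level of Malat1, Neat1 and Gas5 as log2(CPM + 1) in the 15 platelet libraries against the leukocyte score, the mean log2(CPM + 1) of 54 markers. Points are libraries, with S5, O1 and O4 named. Neat1 (r = 0.83) and Malat1 (r = 0.75) were highest in S5 and O1 and lowest in O4, and S5 and O1 were among the lower libraries in Gas5 (r = -0.01).

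S5 and O1 stood apart in different ways. In S5 B cell markers were at 101% of the PBMC mean, Ptprc at 60.0%, Cd3e at 47.7% and S100a9 at 47.3%, the highest of 15 libraries for the B cell list, Ptprc and Cd3e. For S100a9 it was the lowest percentage, but not the lowest level, at 102 CPM (101 CPM in C5). The PBMC mean of S group for S100a9 included S4 at 756 CPM. The neutrophil list of S5 was at 48.1% (29.0% in O4). Its T cell list was at 55.1% (63.4% in O5) and its NK cell list at 52.1% (72.6% in S3). In O1 neutrophil markers were at 296% and S100a9 at 398%, Ptprc was at 29.9%, and erythroid markers took 41.7% of all counts. O4, the library lowest in Malat1 and Neat1, was also lowest in Ptprc, at 5.75%, but highest in the summed pan-leukocyte list, at 167%, where S5 was at 99.3%. O4 was also highest in summed platelet markers, at 95740 CPM, where S5 was at 27547 CPM. Whether the pan-leukocyte sum followed leukocyte or platelet RNA was not tested. The part of these markers in the member levels was not tested.

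Among 13877 genes compared over the 15 platelet libraries, those whose log2 level followed Malat1 most closely were Xist (r = 0.954), the nuclear RNA of the inactive X chromosome, Ifnar1 (0.941), an interferon receptor chain, Hmgb1-ps8 (0.938), Il6ra (0.934), the interleukin 6 receptor, and Ptprc (0.928). Xist remained at rank 1 with total counts (r = 0.966), where Il6ra, Hmgb1-ps8 and Ptprc were within the top 5 and Ifnar1 at rank 24. For Gas5 the closest were the mitochondrial ribosomal RNA gene mt-Rnr1 (r = 0.985), the histone gene Hist1h2be (0.984), A930005H10Rik (0.974), Rgs10 (0.973), a regulator of G protein signalling, and Pcmt1 (0.973). With total counts these genes fell to ranks 235 to 624, and Gas5 itself had r = -0.624 with the log2 TMM factor of the library, against 0.542 for its level with total counts.

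Between S and C groups, the comparison the study designed for tumors that cannot yet be seen, 0 of the 7 genes tested in platelets passed P under 0.05 by edgeR and 0 by DESeq2, against 6.42% of 13268 genes. Kcnq1ot1 had too few reads to be tested in platelets. Malat1 had 0.71 (SE 0.468, 95% interval -0.29 to 1.71, edgeR, adjusted P = 0.787) and Neat1 0.51 (SE 0.384, -0.31 to 1.34, edgeR, adjusted P = 0.8). The platelet values listed above overlapped in both genes, and without S5 the Malat1 difference was 0.03. Without C1 the Neat1 difference was 0.83 and passed. Malat1 passed with no filter, and both genes passed with total counts. Gas5 had -0.02 (SE 0.175, edgeR, adjusted P = 0.985), and its interval of 75.9% to 128% of the C group level bounds any difference more closely than that of Malat1, 81.7% to 328%. The hosts other than Gas5 lay between -0.16 and 0.19, with adjusted P of 0.853 to 0.964 in edgeR. In this comparison 4 of 10 B cell and 3 of 10 T cell markers were higher in S group, and their part in these values was not tested.

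Between S and O groups in platelets 0 of 7 genes passed by edgeR and 0 by DESeq2, against 13.9% of 13306 genes. Malat1 had 0.44 (SE 0.689, -1.06 to 1.94, edgeR, adjusted P = 0.808), Neat1 0.10 (SE 0.648, -1.32 to 1.51, edgeR, adjusted P = 0.96) and Gas5 0.12 (SE 0.207, -0.34 to 0.57, edgeR, adjusted P = 0.834). Snhg12 came closest, with platelet levels of 8.29, 6.37, 9.31, 6.47 and 9.08 CPM in S group and 4.30, 4.41, 8.24, 4.58 and 7.09 CPM in O group. These groups overlapped, and the difference was 0.51 (SE 0.265, -0.06 to 1.09, edgeR, adjusted P = 0.406). It was 0.63, 0.70 and 0.62 without S4, O3 or O5 and 0.54 with all 3 groups in a fit, where it passed. The replicate block also made Snhg12 pass. In this comparison 7 of 10 B cell and 8 of 10 T cell markers were higher and 6 of 10 neutrophil markers lower in S group, and their part in these values was not tested. Neat1 passed without O1, at 1.19, and was -0.40 without S5, where Malat1 was -0.22. Between O and C groups 0 of 7 passed by both tools, against 4.79% of 13270 genes, with 0.25 for Malat1 (SE 0.659, edgeR, adjusted P = 0.969), 0.41 for Neat1 (SE 0.623, adjusted P = 0.947) and -0.14 for Gas5 (SE 0.218, adjusted P = 0.948). Without O1 the values of Malat1 and Neat1 were -0.53 and -0.73. In platelets of O and C group the median summed neutrophil markers were 738 and 313 CPM. The B cell markers were at 899 and 1231 CPM and the T cell markers at 318 and 365 CPM, and their part in these values was not tested.

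In PBMCs 1 of the 8 genes, Snhg8, passed the unadjusted threshold in the comparisons of S group. Its level was 11.7, 15, 13.6, 15.6 and 10.4 CPM in C, 12.6, 8.51, 9.62, 12.0 and 9.60 CPM in S and 12.1, 18.0, 12.3, 13.4 and 10.4 CPM in O group. The groups overlapped. S group was lower than C group by a log2 difference of -0.33 (SE 0.137, 79.4%, 64.5% to 97.7%, edgeR, adjusted P = 1), in a comparison where 2.64% of 15139 genes passed (1.41% lower in S group), and the call was lost when any of C2, C3, C4, S2, S3 or S5 was left out. Against O group the difference was -0.40 (SE 0.157, 76%, 59.7% to 96.6%, edgeR, adjusted P = 0.367), with a background of 12.2% of 14686 genes (7.8% lower), and the call was lost without S2, S3, S5, O2 or O4. With total counts this difference was -0.02. S group has its libraries in both comparisons. In that comparison 9 of 9 erythroid markers were lower in S group, 3 neutrophil markers were lower, and 7 of 7 NK and 8 of 10 T cell markers were higher, and their part in the Snhg8 value was not tested. The other 7 genes lay within -0.12 and 0.07 in both comparisons of S group. Between O and C groups 0 of 8 passed by edgeR and 0 by DESeq2, against 11.9% of 14726 genes, with 0.05 for Snhg8 (SE 0.16, adjusted P = 0.925).

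**Figure D5:**
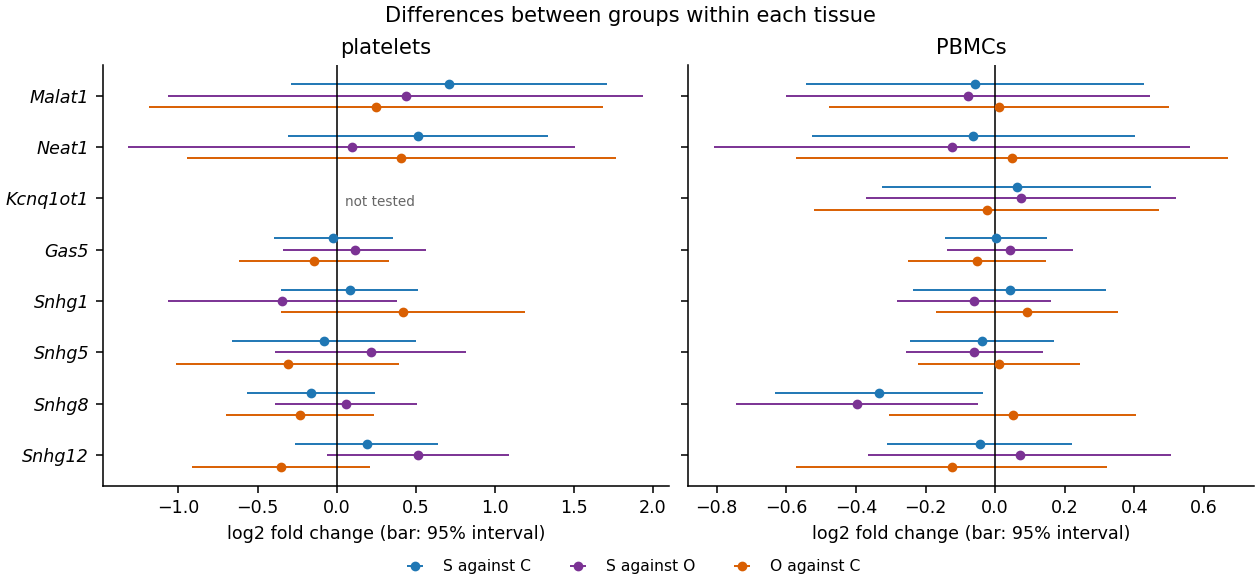
Log2 fold change of each gene for S against C, S against O and O against C group in platelets (left) and PBMCs (right). Points are edgeR estimates with 95% intervals, the vertical line marks no difference, and Kcnq1ot1 was not tested in platelets. Every interval includes 0 except those of Snhg8 in PBMCs for S against C and S against O.

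Whether a group difference depended on the tissue was tested as an interaction. In the case of S against C group 0 of 8 passed by edgeR and 0 by DESeq2 (background 5.38% of 16498 genes), with 0.71 for Malat1 (SE 0.713, adjusted P = 1) and 0.15 for Snhg8 (SE 0.262, adjusted P = 1). For S against O group 0 of 8 passed by both tools (13.6%), with 0.44 for Malat1 (SE 0.713, adjusted P = 0.819), 1.42 for Kcnq1ot1 (SE 0.948, adjusted P = 0.513) and 0.31 for Snhg8 (SE 0.264, adjusted P = 0.618). There 1 of 8 passed without O1 (Neat1) or without O5 (Kcnq1ot1) of the platelets. For O against C group 0 of 8 passed by both tools (6.59%), with 0.27 for Malat1 (SE 0.713, adjusted P = 0.969) and -0.16 for Snhg8 (SE 0.263, adjusted P = 0.943).

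Related genes were read from lists chosen by function and compared between platelets and PBMCs, where 37.1% of all tested genes were higher and 45.2% lower with TMM, and 1860 were higher and 11303 lower of 14342 with total counts. Of 12 other nuclear lncRNAs 9 were tested, 7 were lower in platelets and 1 was higher with TMM (9 lower with total counts), with a median of -1.01. The lower ones included Xist at -2.94 (SE 0.369), Firre at -1.76 (SE 0.168), which anchors the inactive X chromosome, and Tug1 at -0.81 (SE 0.0895). Pvt1, the neighbour of Myc, was the higher one at 0.57 (SE 0.18) and was -0.72 with total counts. Of 12 other lncRNA hosts of snoRNAs 8 were tested, 5 were lower and 2 were higher with TMM (7 lower and 1 higher with total counts), with a median of -0.90. Snhg15 was at -2.42 (SE 0.218), Snhg17 at -1.51 (SE 0.147) and Snhg14, the long imprinted host of the Prader-Willi region, at -4.06 (SE 0.424). Snhg10 was higher under both scalings, at 2.58 (SE 0.275) and 1.31.

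Of 3 lncRNAs listed as cytoplasmic, 2 were higher in platelets with TMM and 1 with total counts. They were 1700020I14Rik, known as Cyrano, at 2.62 (SE 0.145) with TMM and 1.36 with total counts, and 2900097C17Rik, known as Norad and a decoy for Pumilio proteins, at 1.32 (SE 0.0988) and 0.09. Epb41l4aos had 0.09 (SE 0.0846, adjusted P = 0.301) with TMM.

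Genes of proteins that work with these RNAs were read in the same way and against the same background. Of all tested genes 37.1% were higher and 45.2% lower with TMM, and most were lower with total counts. Of 11 nuclear speckle proteins, the company of Malat1, 10 were lower in platelets (11 with total counts), with a median of -0.89, among them Srrm2 at -1.97 (SE 0.13), Srsf5 at -1.15 (SE 0.075) and Srsf6 at -0.89 (SE 0.0727). Of 11 paraspeckle proteins, the partners of Neat1, 4 were higher and 5 lower with TMM (0 and 11 with total counts), with a median of -0.18, and the TMM counts were close to the shares of all tested genes. The lower ones included Cpsf7 at -0.95 (SE 0.0718), Sfpq at -0.80 (SE 0.0802) and Cpsf6 at -0.84 (SE 0.094), and the higher ones, all lower with total counts, Hnrnpk at 0.53 (SE 0.0663) and Nono at 0.38 (SE 0.067). Of 10 core proteins of snoRNA particles 7 were higher and 1 lower with TMM, and 0 were higher and 9 lower with total counts. Their median was 0.58, with Nhp2 at 1.07 (SE 0.103), Gar1 at 0.82 (SE 0.0835) and Nop10 at 0.70 (SE 0.0852), all below 0 with total counts. Of 10 factors of nonsense-mediated decay, the pathway that removes spliced host RNA, 8 were lower and 1 was higher with TMM (10 lower with total counts), with a median of -0.61, among them the kinase Smg1 at -1.48 (SE 0.144), Upf3b at -0.94 (SE 0.0891) and Smg9 at -0.75 (SE 0.0739).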

How the data were processed

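Blood platelets and PBMCs were profiled by poly(A) RNA-seq in 15 pooled libraries each. Per the labels and methods, the authors aligned reads with HISAT2 (2.0.5) and counted them per gene with featureCounts (1.5.0-p3), and the deposited tables hold these raw counts for 54532 Ensembl genes. The processing notes name mm9, while 99.77% of the gene IDs were found in GENCODE M21 (GRCm38), whose positions and symbols were used here.

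Counts were tested with edgeR (4.0.16, quasi-likelihood F test, R 4.3.3) after filterByExpr and TMM normalization, fitted over all genes that passed. The threshold was unadjusted P under 0.05, with Benjamini-Hochberg values beside it. The study adjusted its P values and gives its threshold as P under 0.05, which was read here as unadjusted. Ratios and correlations were tested by permutation. Alternatives were RLE factors, no filter, DESeq2 (1.42.0), a pseudocount of 0.1 for correlations, a replicate block, all 3 groups in a fit and leaving out each library. Total counts, and S5 with O1 left out, were chosen after seeing the data. Scripts were checked on simulated counts.

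Replicate numbers paired S and C group of PBMCs (correlation of deviations 0.311 to 0.584 in 5 of 5 numbers), and the block changed no call there. The members, gene lists and TOP rule were chosen with earlier results of these data known. Of each other list at most 3 genes with the smallest P per comparison were named, and further names were chosen after their values were seen.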

Additional observations from a re-analysis of the deposited data

Results flagged for a closer look

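In 66 groups of 5 libraries (48 member levels and 18 ratios), the highest or lowest library was compared with the rest by Dixon's criterion, which marks about 1 in 20 groups by chance. It marked 9 groups, 8 in platelets and 1 in PBMCs, and these share libraries, so they are not 9 separate cases.

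Platelet library S5 lay far above the other S group libraries in Malat1, at 466 CPM against 97.3 to 155 CPM, and in Kcnq1ot1, at 5.93 CPM against 0.212 to 0.653 CPM. It also stood apart in Malat1 reads per Gas5 read, at 5.30 against 0.793 to 1.71, and in Neat1 reads per Gas5 read, at 3.17 against 0.657 to 0.962. In platelets of O group, O1 lay above the rest in Neat1, at 399 CPM against 44.0 to 101 CPM, in Snhg1, at 34.2 CPM against 9.99 to 14.7 CPM, and in Neat1 reads per Gas5 read, at 4.21 against 0.316 to 0.929. Snhg5 in platelets of C group was highest in C3, at 9.58 CPM against 4.41 to 5.38 CPM. In PBMCs of O group, O1 was highest in Neat1, at 599 CPM against 210 to 311 CPM.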

How the results depend on the processing

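Between platelets and PBMCs 8 of 8 genes passed the unadjusted threshold under every alternative, and 6 kept their direction in all of them. With total counts Gas5 turned to -0.56 and Snhg8 to -0.98, and the median platelet percentages were 3.93 (Malat1), 12.5 (Neat1), 4.35 (Kcnq1ot1), 67.4 (Gas5), 23.2 (Snhg1), 15.3 (Snhg5), 50.7 (Snhg8) and 17 (Snhg12). The Malat1 to Gas5 difference stayed between -4.36 and -4.00 with any library left out. Among platelets, the count of genes passing for S against C group rose from 0 to 1 with no filter (Malat1) and to 2 with total counts (Malat1 and Neat1), and Gas5 turned to 0.18 with total counts and 0.034 without S5 and O1. For S against O group the count was 1 with the replicate block and with all 3 groups in a fit (Snhg12, 0.56 and 0.54), and 1 without S5 and O1 (Neat1). For O against C group the replicate block gave -0.085 for Malat1 and -0.13 for Neat1, and without S5 and O1 they were -0.53 and -0.73. In PBMCs total counts left 0 genes for S against O group and gave Snhg8 -0.34 for O against C group. Interactions gave 1 gene for S against O group without S5 and O1 (Snhg8), and for O against C group -0.17 (block) and -0.57 (without S5 and O1) for Malat1 and 0.20 for Snhg8 with total counts. Correlations with the leukocyte score passing were 2, but 3 with a pseudocount of 0.1, 4 with RLE factors and 6 with total counts, and with RLE factors and total counts r of Gas5 was 0.22 and 0.30 and that of Snhg8 0.128 and 0.345. Of 77 fold changes, total counts turned 18 that passed in neither setting and the 2 tissue differences given above. The cause of these changes was not tested.

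With 1 library left out, counts of genes passing ran from 0 to 1 for S against C and S against O group in platelets, in PBMCs and in the S against O interaction, and from 1 to 3 for the correlations. Values that changed sign included Gas5 in platelets, from -0.12 to 0.064 (S against C) and from -0.017 to 0.23 (S against O), Malat1, from -0.22 to 1.18 (S against O) and from -0.53 to 0.57 (O against C), Neat1, from -0.40 to 1.19 and from -0.73 to 0.78, Snhg8 in PBMCs (O against C), from -0.077 to 0.13, the Malat1 interaction, from -0.18 to 1.32 (S against O) and from -0.57 to 0.55 (O against C), and r of Gas5, from -0.130 to 0.141, of Snhg8, from -0.179 to 0.123, of Kcnq1ot1, to -0.023 without S5, and of Snhg5, to -0.047 without O4. Correlations of the same replicate numbers were all over 0.1 for S and C group of PBMCs only. They were in 4 of 5 numbers for S and O group of PBMCs, O and C group of platelets, and the tissues within O group, where each number had as many mice in both tissues and could hold the same mice. The block changed no call beyond those given. Depth limited Kcnq1ot1 most, with 0 to 81 reads in a platelet library.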

Other observations

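Malat1 and Neat1 moved together in platelets and apart in PBMCs. Over 15 libraries each, Pearson r of their log2 levels was 0.858 in platelets and -0.866 in PBMCs, with 0.883 and -0.380 with total counts. In PBMCs the replicates numbered 1 were the 3 libraries lowest in Malat1 (999, 779 and 810 CPM in C1, S1 and O1, against 1136 to 1902 CPM elsewhere) and highest in Neat1 (476, 539 and 599 CPM, against 210 to 348 CPM). Summed neutrophil markers were 873, 660 and 4339 CPM in those 3 libraries and 267 to 3509 CPM in the others. The pattern was noticed in the data and not tested.

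The 8 genes made up 0.0132% to 0.0777% of all reads in platelets and 0.141% to 0.383% in PBMCs. The 3 nuclear lncRNAs took 29.0% to 85.6% of those reads in platelets (median 59.9%) and 90.8% to 94.0% in PBMCs (median 93.0%). Within the 5 hosts, Gas5 took 62.4% to 79.5% of the reads in platelets and 48.6% to 54.9% in PBMCs, ranges that did not overlap. These shares are read counts within a library and do not depend on the scaling.

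Among related genes, Snhg20, another snoRNA host, was the one with the smallest P between groups of platelets. It was higher in S group than in O group, by 1.98 on the log2 scale (SE 0.534, edgeR, adjusted P = 0.23), and than in C group by 1.17 (edgeR, adjusted P = 0.752), which was 0.94 and did not pass the unadjusted threshold without S5 and O1. In platelets of S against O group 7 of 10 B cell and 8 of 10 T cell markers were also higher and 6 of 10 neutrophil markers lower, and against C group 4 and 3 of these were higher for B and T cells. Their part in the Snhg20 values was not tested. In PBMCs its differences were 0.02 and -0.10, and the tissue interaction was 1.88 (edgeR, adjusted P = 0.183) for S against O group. For the same interaction 5 of 10 snoRNA particle proteins were lower and 0 higher (3 lower with total counts or without S5 and O1, 2 with no filter), where 13.6% of 16498 genes passed in either direction. Of 13111 protein-coding genes 1181 were lower and 575 higher. The median of the particle proteins was -0.41, where that of all genes was -0.08 and that of protein-coding genes -0.13. Dkc1, the pseudouridine synthase, was at -0.68 (SE 0.176, edgeR, adjusted P = 0.175) and Nop58 at -0.72 (SE 0.198, edgeR, adjusted P = 0.183). In that interaction 5 of 10 B cell and 3 of 10 T cell markers were higher, and their part was not tested. None of the values named for Snhg20, Dkc1 and Nop58 passed after adjustment.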
